A study of Triticum turgidum subsp. durum with 36 samples.

Results

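The 150 loci described here are those of the flag leaf whose expression in wild type (WT) tetraploid wheat stood farthest above that of 2 GPC mutant lines at 12 days after anthesis (DAA), among 80168 loci in the count table. Expression is given as CPM, the reads counted at a locus as a share of its library's total, scaled to a total of 1e6. A locus was a member if its lowest CPM among the 4 WT libraries of 12 DAA exceeded its highest CPM among the 8 mutant libraries of that time and its mean WT level was at least 2 CPM. Of 35863 loci at this level, 864 met the condition. After loci matched to metal transporter and phytosiderophore genes listed by the study were left out, 846 remained. Other loci on the contigs of these genes were not left out, and 2 of the members lie on such a contig. The 150 with the largest log2 ratio of mean WT to mean mutant CPM, with 0.5 CPM added to each, were kept. The members were thus chosen by the measured levels of the 12 DAA libraries, so every value from 12 DAA below is a description and carries no test. The libraries of heading and of 22 DAA took no part in the choice, and the tests below were fitted on those alone.

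GPC genes encode NAC transcription factors. In wheat leaves GPC1 speeds up senescence, the programme in which chlorophyll and protein are broken down and nitrogen, iron and zinc move to the developing grain. For a mutation in GPC-B2, a copy of the related GPC2, the study found no significant effect on senescence in field trials. Genes that are active in such a leaf typically include proteases, transporters of amino acids and metals, and enzymes that take apart membranes and chloroplasts.

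The series compared flag leaves of *gpc-A1* mutants, *gpc-A1*/*gpc-B2* double mutants and WT plants of the durum cultivar Kronos, with 4 libraries per genotype at each of heading (HD), 12 DAA and 22 DAA. The *gpc-A1* line carries a premature stop in GPC-A1 and the double mutant a further premature stop in GPC-B2, both from a mutagenized (TILLING) population and backcrossed. All 3 genotypes carry the non-functional GPC-B1 of Kronos and an intact GPC-A2, so the *gpc-A1* line lacks a working GPC1 gene, and the double mutant keeps a copy of GPC2. Each library came from 1 whole flag leaf of a greenhouse plant, and no loss of green colour was visible at the times sampled. Library totals ran from 13754124 to 48981831 counted reads with a median of 19377652, and the deepest was WT replicate 4 of 12 DAA. One library titled *gpc-A1* at HD, replicate 1, is given as wild type in its genotype field, and the title was followed. The count of members called between HD and 22 DAA within *gpc-A1* is also given without this library. Tests of single loci within *gpc-A1*, of the difference in change and of the mutants against each other at HD are not given without it alone.

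No member was among the 782 described loci in the part of the study's annotation table used here, so the loci are named by the chromosome arm, contig number and first and last base on the contig of the International Wheat Genome Sequencing Consortium (IWGSC) Chinese Spring survey assembly. Their roles, exons and untranslated regions are therefore not given. The members lay on 24 chromosome arms. The arm with the most was 7AL with 20 members (13.3%, against 3.55% of the loci at the same WT level), followed by 1AS, 6AL and 3B with 12 members each (8% each, against 2.02%, 3.23% and 8.92%). None lay on 4BS, 5AS or 6AS. The A genome held 90 members (60%, against 48.7% of loci at that level). Members were also shorter, with a median length of 1352 bases against 2858 bases. On 9 contigs 23 members lay beside another member, such as the 3 members of 1AS contig 3295399 and the 4 of 7AL contig 4552888, and the files do not say whether such neighbours are parts of the same gene.

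At 12 DAA the members were on average several times higher in WT than in either mutant. The median log2 ratio relative to WT was -2.15 in *gpc-A1* and -2.28 in *gpc-A1*/*gpc-B2*, and the ratio of mean WT to mean mutant CPM had a median of 6.40. Summed over the members, the level was 860 ± 255 CPM in *gpc-A1*, 842 ± 78.9 CPM in *gpc-A1*/*gpc-B2* and 5933 ± 1510 CPM in WT (SD, n = 4 each). The mean WT level of single members ran from 2.01 to 435 CPM with a median of 11.9 CPM. Among all loci tested, 1.56% had every WT library above every mutant library at 12 DAA. At the limit of the list, the last members were 6AL contig 5775255 (bases 2527 to 4436), 6BL contig 4390569 (1451 to 3533) and 4BL contig 7000984 (4163 to 4858), with log2 ratios of WT over mutants of 1.47, 1.47 and 1.46. The first loci outside were 1BS contig 3454634 (1 to 4314), 4BL contig 7035304 (1 to 639) and 3AL contig 4388680 (1 to 2970), each at 1.46, so the list ends in a continuum.

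The same loci were then followed at the times that had not chosen them. At HD the median log2 ratio of the pooled mutants over WT, with 0.5 CPM added, was -0.03, against 0.03 for all loci tested. At 22 DAA the median was -1.68, against 0.01 for all loci, and 149 of 150 members were lower in the mutants. Taken by line, the medians were -0.45 in *gpc-A1* and 0.03 in *gpc-A1*/*gpc-B2* at HD, and -1.55 in *gpc-A1* and -2.06 in *gpc-A1*/*gpc-B2* at 22 DAA. The exception was 6AL contig 5764831 (bases 4365 to 5811), with 2.35 ± 0.44 CPM in *gpc-A1*, 1.59 ± 0.59 in *gpc-A1*/*gpc-B2* and 1.86 ± 1.11 in WT (SD, n = 4 each). At 22 DAA 119 members were at or below a log2 ratio of -1, which is 79.3% of the members and 0.759% of all loci.

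**Figure D1:**
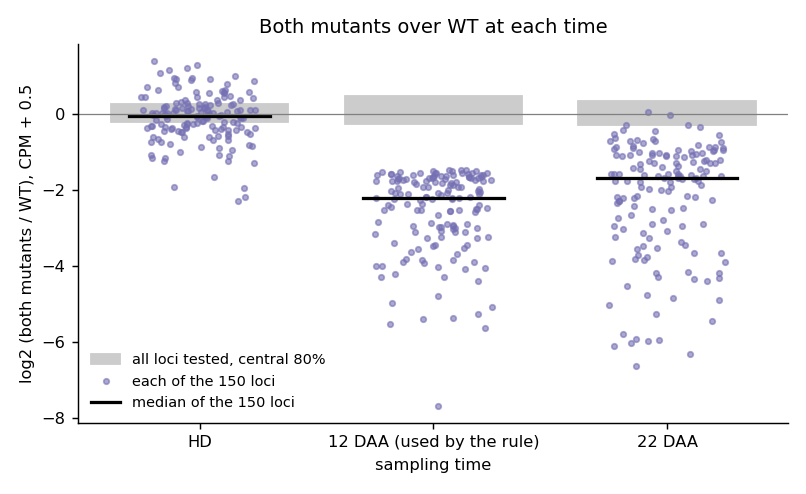
The log2 ratio of mean CPM in both mutants over WT (vertical axis, 0.5 CPM added) at HD, 12 DAA and 22 DAA, with 1 point per member, a black line at the member median and a grey band for the central 80% of all loci tested. The median lies at -0.03 at HD, at -2.20 at 12 DAA, the time that chose the members, and at -1.68 at 22 DAA.

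All 4 WT libraries lay above all 8 mutant libraries for 69 of the 150 members at 22 DAA (46%), against 0.787% of all loci. The 69 lay on 59 contigs. The opposite order, WT below all mutants, occurred for 0 members at 22 DAA, against 0.48% of all loci. At HD all WT libraries lay above all mutant libraries for 2 members, against 0.22% of all loci, and below them for 0 members, against 0.559%. The members with WT above at HD were 7AL contig 4555932 (bases 6620 to 11118), with 0.375 ± 0.402 CPM in *gpc-A1*, 0.233 ± 0.217 in *gpc-A1*/*gpc-B2* and 2.01 ± 0.52 in WT, and 5BL contig 10913556 (613 to 1927), with 36.3 ± 2.4 CPM in *gpc-A1*, 38.96 ± 5.76 in *gpc-A1*/*gpc-B2* and 68.8 ± 11.3 in WT (SD, n = 4 each).

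**Figure D2:**
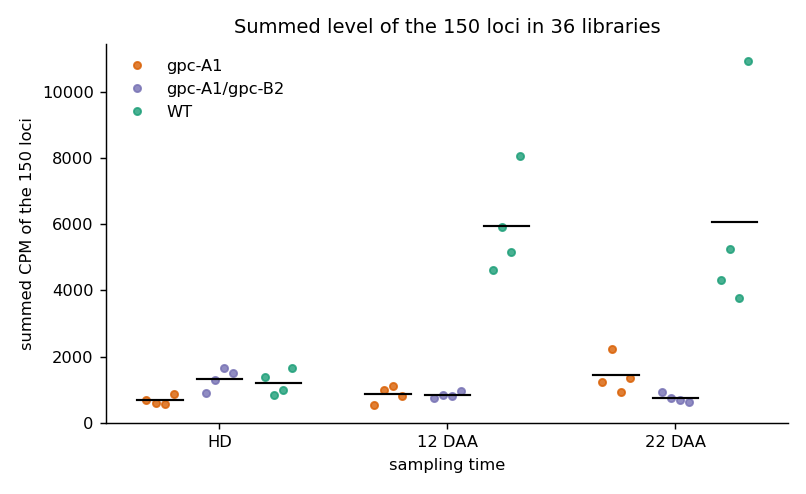
Summed CPM of the 150 members in each of the 36 libraries by sampling time and genotype, with black lines at the means of the 4 libraries of a group. WT stands above both mutants at 12 DAA, which chose the members, and at 22 DAA (highest mutant library 2226, lowest WT library 3777 CPM), while at HD WT overlaps each mutant and the *gpc-A1* libraries lie below those of *gpc-A1*/*gpc-B2*.

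The summed level at HD was 678.7 ± 146.5 CPM in *gpc-A1*, 1334.7 ± 331.6 CPM in *gpc-A1*/*gpc-B2* and 1212.8 ± 371.8 CPM in WT. At 22 DAA it was 1437 ± 553 CPM in *gpc-A1*, 750 ± 133 CPM in *gpc-A1*/*gpc-B2* and 6062 ± 3296 CPM in WT (SD, n = 4 each). The WT spread at 22 DAA was wide, from 3777 to 10921 CPM, and WT replicate 4 was the highest WT library for 110 of the 150 members at that time, for 92 at 12 DAA and for 89 at HD. From whole leaves, fewer cells of a type and less RNA per cell cannot be told apart. The summed CPM of 44 described photosynthesis loci, taken as markers of green leaf, ran from 21912 to 57786 in *gpc-A1*, from 29417 to 41046 in *gpc-A1*/*gpc-B2* and from 21509 to 56257 in WT at 22 DAA, so these markers overlapped between genotypes at that time. At 12 DAA they ran from 52606 to 80608 in *gpc-A1*, from 30922 to 71236 in *gpc-A1*/*gpc-B2* and from 72458 to 85994 in WT, with every *gpc-A1*/*gpc-B2* library below every WT library, and their part in the 12 DAA values was not tested. No locus described as a grain storage protein was among the described loci.

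The differences between genotypes were tested with edgeR's quasi-likelihood test over 75375 loci, and a locus was called at a Benjamini-Hochberg adjusted *P* of at most 0.01. All 150 members passed the filter on low counts, of which 143 would have passed without the WT libraries of 12 DAA. The rest were tested only because of those libraries, and they remain in the counts out of 150. For both mutants together over WT at 22 DAA, 50 members were called and all 50 were lower in the mutants (33.3%), against 0.147% of all loci called lower and 0.00398% called higher. The median fitted log2 change over the members was -2.24, against 0.00 for all loci, and the 50 lay on 43 contigs. At an unadjusted *P* under 0.05, 83.3% of the members were lower, against 5.2% of all loci. All 50 had every WT library above every mutant library. Leaving out the WT library of replicate 4 at 22 DAA left 38 called members, and leaving out a whole replicate number left 7 to 20. The calls over all loci went from 114 to 55 and to 9 to 39.

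Each mutant was also set against WT on its own, with the WT libraries shared by both comparisons. For *gpc-A1*/*gpc-B2* over WT at 22 DAA, 42 members fell and 0 rose, against 0.142% and 0.0438% of all loci, with a median of -2.55 and with 124 members lower at an unadjusted *P* under 0.05 (7.56% of all loci). For *gpc-A1* over WT at 22 DAA, 0 members were called by edgeR, as was no locus in the whole table (0%), although the median was -1.93 and 87 members were lower at an unadjusted *P* under 0.05 (2.57% of all loci). DESeq2 called 48 members there (0.171% of all loci). A WT library was never below a *gpc-A1* library for 70 members, against 1.77% of all loci, and never below a *gpc-A1*/*gpc-B2* library for 90, against 3.68%. The mutants themselves were set against each other at 22 DAA, where edgeR called 0 members for *gpc-A1*/*gpc-B2* over *gpc-A1*, with 25 lower and 2 higher at an unadjusted *P* under 0.05 (3.51% and 1.98% of all loci) and 0 called by DESeq2 (0.0973%). The share of all loci called there by edgeR was 0.0119%. Without replicate 4 the calls for *gpc-A1*/*gpc-B2* over WT came to 3, without replicate 2 to 4 and without replicate 3 to 7. Those over all loci went from 140 to 5, 21 and 36.

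At HD edgeR called no member in any genotype comparison. For both mutants over WT, 36 members were lower and 1 was higher at an unadjusted *P* under 0.05, against 3.69% and 3.6% of all loci, 0.00133% of loci were called by edgeR, and DESeq2 called 3 members (0.0996% of all loci). For *gpc-A1* over WT the median was -0.89, with 41 members lower and 2 higher at an unadjusted *P* under 0.05 (3.97% and 3.38% of all loci) and 4 called by DESeq2 (0.0545%). With replicate as a block, edgeR called 1 member (0.00531%). For *gpc-A1*/*gpc-B2* over WT the median was 0.01, with 20 members lower and 29 higher at that level (2.28% and 2.66% of all loci) and 1 called by DESeq2 (0.0611%). For *gpc-A1*/*gpc-B2* over *gpc-A1* at HD the median was 0.75, with 65 members higher and 1 lower at an unadjusted *P* under 0.05, against 3.53% and 2.1% of all loci, 0 called by edgeR (0.00133%) and 18 by DESeq2 (0.0518%). By mean CPM the double mutant was above *gpc-A1* for 120 of the 150 members at HD and below it for 109 at 22 DAA. Of all 75375 loci tested, it was above *gpc-A1* for 41800 at HD and below it for 32651 at 22 DAA.

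The locus first in the list was 1AS contig 3314486 (bases 1337 to 4019). At HD it had 0.118, 0.136, 0.114 and 0.289 CPM in *gpc-A1*, 0.513, 0.596, 0.164 and 0.373 CPM in *gpc-A1*/*gpc-B2*, and 0.441, 0.384, 0.636 and 1.75 CPM in WT. At 12 DAA the values were 0.633, 0.518, 0.487 and 0.488 CPM in *gpc-A1*, 0.485, 2.07, 1.45 and 0.733 CPM in *gpc-A1*/*gpc-B2*, and 164, 516, 241 and 184 CPM in WT. At 22 DAA they were 13.5, 14.1, 1.27 and 14.1 CPM in *gpc-A1*, 13.4, 3.69, 1.32 and 1.96 CPM in *gpc-A1*/*gpc-B2*, and 444, 166, 126.7 and 226 CPM in WT. The lowest WT library of 22 DAA was thus far above the highest mutant library, while at HD all groups were low, with every *gpc-A1* library below every WT library and the *gpc-A1*/*gpc-B2* libraries overlapping both. By edgeR with Benjamini-Hochberg adjustment, the locus was lower in the mutants than in WT at 22 DAA (log2 -4.98 ± 0.67 SE, adjusted *P* = 0.00526). It rose between HD and 22 DAA within *gpc-A1* (5.85 ± 0.80, adjusted *P* = 0.00363), the change within *gpc-A1*/*gpc-B2* was 3.39 ± 0.77 (adjusted *P* = 0.0111), and it rose within WT (8.01 ± 0.61, adjusted *P* = 0.000121).

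**Figure D3:**
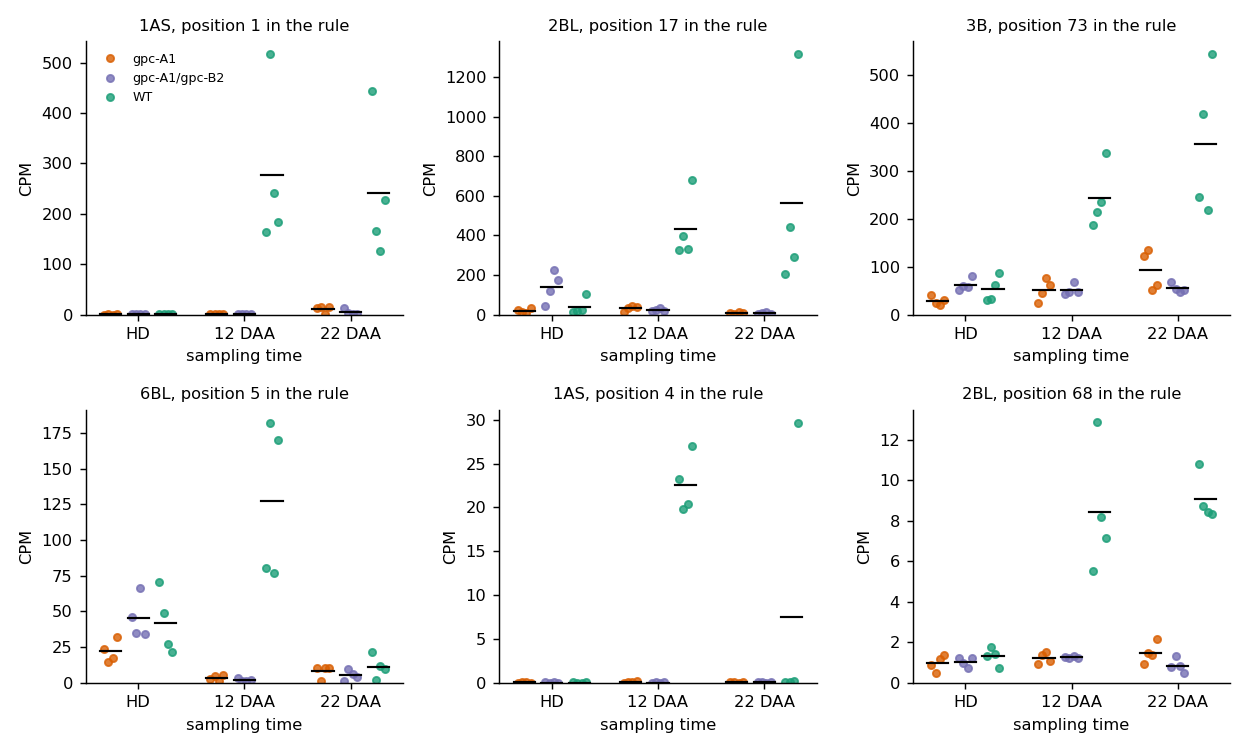
CPM (linear axes that differ between panels) of 6 members in every library by sampling time and genotype, with black lines at group means, each panel titled with the chromosome arm and the position in the list of 150. All WT libraries stand above the mutants at 22 DAA in 1AS contig 3314486 (position 1), 2BL contig 7971302 (17), 3B contig 10635320 (73) and 2BL contig 7963445 (68), but not in 6BL contig 4261467 (5) or 1AS contig 3295399 (4; 3916 to 5622), which 1 WT library alone expresses at 22 DAA.

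A different course was seen for 2BL contig 7971302 (bases 3009 to 7466), the member with the highest mean WT level at 12 DAA, 435 ± 168 CPM (SD, n = 4). At HD it had 24.1, 11.04, 6.91 and 33.97 CPM in *gpc-A1*, 44.2, 118, 226 and 173 CPM in *gpc-A1*/*gpc-B2*, and 13.5, 17.6, 25.1 and 106.3 CPM in WT. At 22 DAA it had 9.72, 1.65, 15.4 and 7.66 CPM in *gpc-A1*, 2.73, 7.43, 12.3 and 5.22 CPM in *gpc-A1*/*gpc-B2*, and 206, 443, 289 and 1316 CPM in WT. The double mutant was thus the highest genotype by mean at HD, overlapping WT, and at 22 DAA all its libraries lay below all WT libraries. By edgeR it was lower in the mutants at 22 DAA (log2 -6.16 ± 0.57 SE, adjusted *P* = 0.000516) and fell between HD and 22 DAA within *gpc-A1*/*gpc-B2* (-4.56 ± 0.54, adjusted *P* = 0.000325). Its change within WT was 3.57 ± 0.74 (adjusted *P* = 0.0119), which missed the threshold.

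Of the 10 members with the largest ratio, 5 lay on 7AL. By edgeR, 7AL contig 4370150 (3 to 1570) fell by 7.0 ± 0.73 on the log2 scale in the mutants relative to WT at 22 DAA, contig 4432422 (149 to 653) by 6.95 ± 0.63, contig 4500933 (2 to 3971) by 7.09 ± 0.69, contig 4508748 (1445 to 2454) by 5.61 ± 0.67 and contig 4539775 (1629 to 3121) by 5.37 ± 0.74, with adjusted *P* between 0.000445 and 0.00598. For contig 4370150 the 22 DAA libraries had 2.62, 0.0868, 3.49 and 0.511 CPM in *gpc-A1*, 0.504, 1.83, 1.76 and 1.499 CPM in *gpc-A1*/*gpc-B2*, and 51, 135.4, 83.9 and 530 CPM in WT. All WT libraries lay far above all mutant libraries, although the WT libraries differed widely among themselves. On 6AL, contig 5805822 (363 to 4247) fell by 6.18 ± 0.72 in the same test (adjusted *P* = 0.00188), and on 2AL, contig 6350834 (1220 to 1996) fell by 6.33 ± 0.57 (adjusted *P* = 0.000445).

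The members with the lowest *P* for both mutants over WT at 22 DAA shared an adjusted *P* of 0.000445. They were 2AL contig 6388831 (3748 to 6198, log2 -6.22 ± 0.50), 1AL contig 3918166 (18 to 785, -6.30 ± 0.56), 7BL contig 6739371 (1484 bases ending at 1600, -4.55 ± 0.39), 3AL contig 4389148 (1940 bases ending at 2066, -4.02 ± 0.35) and 2BL contig 7963445 (9652 to 15746, -3.01 ± 0.25). The last had the narrowest WT range of these 5. At 22 DAA it had 0.906, 1.48, 1.40 and 2.16 CPM in *gpc-A1*, 0.756, 1.32, 0.831 and 0.465 CPM in *gpc-A1*/*gpc-B2*, and 10.8, 8.72, 8.45 and 8.35 CPM in WT. At HD it had 0.992 ± 0.39 CPM in *gpc-A1*, 1.04 ± 0.25 CPM in *gpc-A1*/*gpc-B2* and 1.31 ± 0.43 CPM in WT (SD, n = 4 each), with overlapping libraries. Within WT it rose between HD and 22 DAA by 2.49 ± 0.29 on the log2 scale (edgeR, adjusted *P* = 0.000818). For 3AL contig 4389148 the 22 DAA libraries had 1.91, 0.998, 4.06 and 1.82 CPM in *gpc-A1*, 1.18, 2.97, 3.13 and 2.53 CPM in *gpc-A1*/*gpc-B2*, and 20.8, 25.9, 32.02 and 72.6 CPM in WT, again without overlap.

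Of the members with the highest WT levels at 12 DAA, 4 were also well expressed in the mutants and had smaller fitted differences. For 3B contig 10635320 (3608 to 6731) the 22 DAA libraries had 123, 135.4, 50.3 and 61.9 CPM in *gpc-A1*, 67.9, 53.02, 47.9 and 50.5 CPM in *gpc-A1*/*gpc-B2*, and 245.9, 419, 217.8 and 544 CPM in WT. It was lower in the mutants (log2 -2.28 ± 0.30 SE, edgeR adjusted *P* = 0.00423) and its change between HD and 22 DAA was 1.53 ± 0.37 within *gpc-A1* (adjusted *P* = 0.0240). Within WT it rose by 2.49 ± 0.37 (adjusted *P* = 0.00278). For 2AS contig 5188336 (3758 to 7278), 5AL contig 2452966 (1 to 533) and 5BL contig 10920285 (9023 to 12353), the log2 change in the mutants relative to WT at 22 DAA was -1.99 ± 0.45, -1.46 ± 0.46 and -1.03 ± 0.43 by edgeR, with adjusted *P* of 0.101, 0.272 and 0.438. At 22 DAA the highest mutant library of each lay above the lowest WT library, at 167.2 against 49.8 CPM for the 2AS locus.

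The fifth locus in the list, 6BL contig 4261467 (3542 to 4984), differed at 12 DAA but not beyond the spread at 22 DAA. At 12 DAA it had 2.85, 4.57, 1.14 and 5.32 CPM in *gpc-A1*, 3.21, 0.984, 1.31 and 1.65 CPM in *gpc-A1*/*gpc-B2*, and 80.5, 182, 76.96 and 170 CPM in WT. At 22 DAA it had 10.6, 1.43, 10.3 and 10.2 CPM in *gpc-A1*, 1.60, 9.72, 6.40 and 4.03 CPM in *gpc-A1*/*gpc-B2*, and 21.9, 1.61, 12.0 and 9.93 CPM in WT. The genotypes overlapped at 22 DAA (log2 -0.80 ± 0.60 SE, edgeR adjusted *P* = 0.699), and WT overlapped each mutant at HD, where this locus was at 22.1 ± 7.98 CPM in *gpc-A1*, 45.4 ± 15.2 CPM in *gpc-A1*/*gpc-B2* and 42.1 ± 22.6 CPM in WT (SD, n = 4 each). Between HD and 22 DAA it fell within *gpc-A1*/*gpc-B2* (-3.28 ± 0.44, adjusted *P* = 0.000732). The lower level at 22 DAA was not particular to that line. Every WT library of 22 DAA lay below the WT mean of HD, and every *gpc-A1* library below the *gpc-A1* mean of HD.

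Reads of 3 members on 1AS, picked by a rule for on-off loci, were found almost only in WT at 12 DAA. The rule asked for 100 normalized counts in at least 3 libraries, so members with fewer reads could not meet it. The 3 were contig 3295399, bases 3916 to 5622 and 2626 to 3806, and contig 3282156, bases 1 to 2183. Contig 3282156 had 0, 0, 0.108 and 0.0543 CPM in *gpc-A1*, 0.121, 0, 0.0727 and 0 CPM in *gpc-A1*/*gpc-B2*, and 14.9, 10.4, 16.7 and 15.8 CPM in WT at 12 DAA. At 22 DAA it had 0, 0, 0.0635 and 0.0567 CPM in *gpc-A1*, 0.0420, 0, 0.0489 and 0 CPM in *gpc-A1*/*gpc-B2*, and 0, 0.0447, 0 and 14.1 CPM in WT. Among the libraries of 22 DAA, WT replicate 4 alone was above 0.163 CPM for any of the 3 loci, and it held 29.7 and 12.2 CPM of the longer and the shorter locus of contig 3295399. At HD none of the 3 exceeded 0.0905 CPM in any library. A count of 0 in a library allows up to 3 reads, or 0.0612 CPM in the deepest and 0.218 CPM in the shallowest library, for counting error alone. The 3 loci were not called at 22 DAA (edgeR adjusted *P* of 0.0645, 0.204 and 0.117). No group of HD or 22 DAA held over 3 reads of any of them in at least 2 libraries. They passed the low-count filter through the 12 DAA libraries that chose them, so these *P* values are a description.

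The members were also compared between HD and 22 DAA within each genotype. In *gpc-A1*, 21 members rose and 3 fell, against 1.58% and 0.939% of all loci, with a median log2 change of 0.43 over the members. In *gpc-A1*/*gpc-B2*, 16 rose and 41 fell, against 4.17% and 3.7%, with a median of -0.78. In WT, 58 rose and 1 fell, against 2.68% and 1.95%, with a median of 2.98, while the median over all loci was 0.01. Scaling by library totals moved the median of all loci by 0.18 in *gpc-A1*, by 0.23 in *gpc-A1*/*gpc-B2* and by 0.26 in WT. With that scaling 27 members rose and 3 fell in *gpc-A1*, 24 rose and 35 fell in *gpc-A1*/*gpc-B2*, and 66 rose and 1 fell in WT. The calls over all loci also grew, from 1900 to 3464, from 5930 to 7624 and from 3488 to 4250 in the same order. Without the *gpc-A1* library of HD whose genotype field reads wild type, 2 members were called within *gpc-A1* in place of 24. The calls over all loci went from 1900 to 120 there, so the loss was not particular to the members. Without replicate 1 of all genotypes, 0 members and 0 of all loci were called within *gpc-A1*. In *gpc-A1*/*gpc-B2* the calls came to 26 without replicate 2 and 16 without replicate 4, and in WT to 22, 27 and 23 without replicates 1, 2 and 3 and to 85 without replicate 4. The calls over all loci went from 5930 to 1434 and 1265 in *gpc-A1*/*gpc-B2*. In WT they went from 3488 to 422, 740, 940 and 4076.

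**Figure D4:**
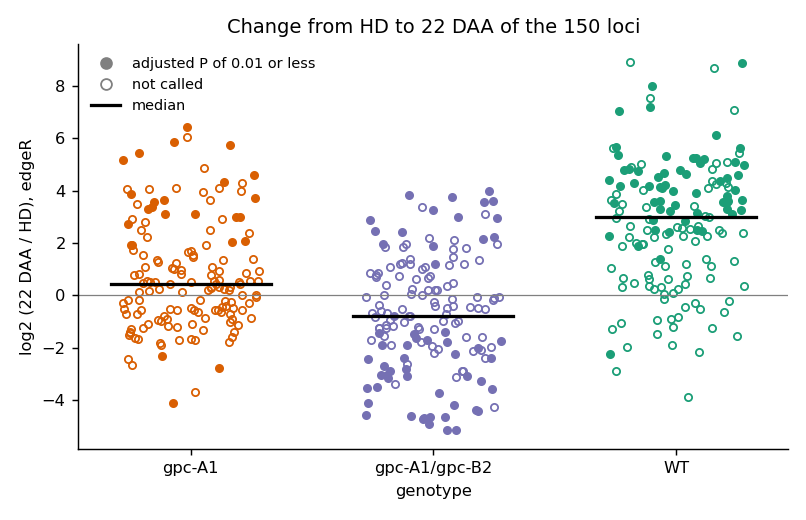
Fitted log2 change between HD and 22 DAA (vertical axis, edgeR) of each member within each genotype, with filled points at an adjusted *P* of at most 0.01, open points for the others and black lines at the medians. The medians are 0.43 in *gpc-A1*, -0.78 in *gpc-A1*/*gpc-B2* and 2.98 in WT.

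Of the members that rose in WT, the largest fitted change was that of 7BL contig 6688105 (bases 1 to 864). The ZIP metal transporter gene TaZIP10-like1, which the study listed, begins just after this member on the same contig. Another member, on 7AL contig 4404279 (position 105 in the list), begins just after the TaZIP10-like1 locus of 7AL. Whether these members are parts of the TaZIP10-like1 genes was not tested, so they cannot be taken as separate genes. At 22 DAA the 7BL member had 4.18, 6.81, 7.62 and 3.01 CPM in *gpc-A1* and 2.06, 3.31, 3.18 and 5.17 CPM in *gpc-A1*/*gpc-B2*. In WT it had 10.1, 15.2, 16.1 and 28.2 CPM. No library of HD held more than 0.511 CPM, and 3 of the 4 WT libraries of HD held no read, so the size of its fitted changes depends on the prior count. By edgeR it rose within *gpc-A1* (log2 5.74 ± 0.69, adjusted *P* = 0.00231), within *gpc-A1*/*gpc-B2* (3.83 ± 0.58, adjusted *P* = 0.00133) and within WT (8.87 ± 0.57, adjusted *P* = 6.65e-05), and at 22 DAA it was lower in the mutants than in WT (-2.01 ± 0.27, adjusted *P* = 0.00538). The single member that fell in WT, 5BL contig 10913556, changed by -2.32 ± 0.35 in *gpc-A1* (edgeR adjusted *P* = 0.00515), -3.04 ± 0.20 in *gpc-A1*/*gpc-B2* (adjusted *P* = 1.58e-05) and -2.26 ± 0.31 in WT (adjusted *P* = 0.00195) on the log2 scale.

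The difference in the change itself was tested as an interaction. For *gpc-A1*/*gpc-B2*, 28 members had a lower log2 change between HD and 22 DAA than in WT and 0 a higher one, against 0.0438% of all loci with a lower change and 0% with a higher one, and the median difference over the members was -2.82 on the log2 scale. For *gpc-A1*, 0 members were called by edgeR, with a median of -1.34, 55 members lower at an unadjusted *P* under 0.05 (2.32% of all loci) and 7 called by DESeq2 (0.0239%). The count of 28 fell to 0 without replicate 2 or replicate 3 and to 4 without replicate 1, and it was 18 without the WT library of replicate 4 at 22 DAA and 45 without that of HD. The count over all loci went from 33 to 2, 1 and 5 without replicates 2, 3 and 1. It was 22 and 57 without those WT libraries.

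By group mean, WT was highest at HD for 5 members, at 12 DAA for 84 and at 22 DAA for 61. Between the later times the WT level was within 2-fold for 99 members, at least 2-fold lower at 22 DAA for 37 and at least 2-fold higher for 14. The 5 highest at HD included 2AS contig 5294988 (1196 to 2494), which fell between HD and 22 DAA within *gpc-A1* (log2 -4.13 ± 0.34 SE, edgeR adjusted *P* = 0.000689) and within *gpc-A1*/*gpc-B2* (-3.09 ± 0.30, adjusted *P* = 0.000125). Its change within WT was -3.89 ± 0.94 (adjusted *P* = 0.0231).

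Likeness to 2BL contig 7971302 was measured as Pearson's r of log2(CPM + 0.5) over the 24 libraries of HD and 22 DAA, which share their genotypes and times, and is a description. The median r of the other members with this locus was 0.45, from -0.12 to 0.99. With it, 22 members formed a block at r of at least 0.9. Of all 75374 other loci, 23 reached that value, of which 21 were members. The other 2 were genes that the study listed and that were therefore left out of the members: TaZIP3 on 2AL contig 1213723 (r = 0.95), a ZIP family metal transporter, and TaNAAT2 on 1BL contig 3814337 (r = 0.91), a nicotianamine aminotransferase of the phytosiderophore pathway. At r of at least 0.8 there were 60 loci, of which 38 were members and 12 were on the study's list.

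**Figure D5:**
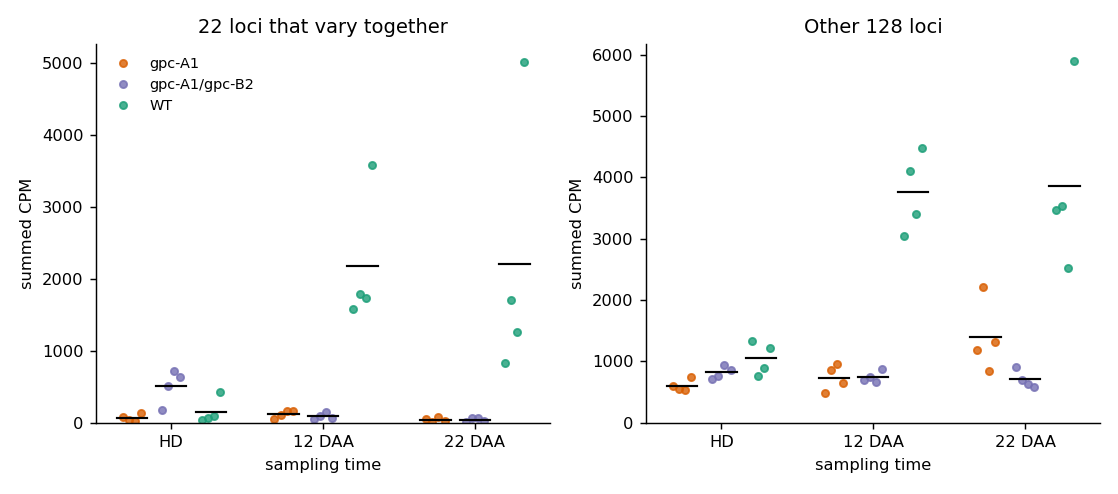
Summed CPM per library, by sampling time and genotype, of the 22 members that vary with 2BL contig 7971302 (left) and of the remaining members (right), with black lines at group means. On the left the double mutant has the highest mean at HD, and at 22 DAA its libraries (15.1 to 63.5 CPM) lie below all WT libraries (831 to 5016 CPM).

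The block lay on 18 contigs and 9 arms, and it was singled out after its values were seen. It was chosen by likeness over the same HD and 22 DAA libraries on which the tests were fitted. The levels and counts of calls below therefore follow in part from that choice and describe the block without testing it. At HD its members summed to 85.3, 40.03, 28.1 and 139 CPM in *gpc-A1*, 174, 516, 718 and 631 CPM in *gpc-A1*/*gpc-B2*, and 42.8, 61.9, 97.3 and 423 CPM in WT. At 22 DAA they summed to 53.1, 12.3, 85.8 and 26.3 CPM in *gpc-A1*, 15.1, 60.3, 63.5 and 30.4 CPM in *gpc-A1*/*gpc-B2*, and 831, 1710, 1258 and 5016 CPM in WT. The median log2 ratio over WT at HD was -0.81 for *gpc-A1* and 1.56 for *gpc-A1*/*gpc-B2*, and at 22 DAA the double mutant lay below every WT library. All 22 were among the members called lower in the mutants pooled over WT at 22 DAA, and 19 among those called lower in *gpc-A1*/*gpc-B2* alone over WT, while none was called for *gpc-A1* alone. Of the block, 21 were among the 41 that fell within *gpc-A1*/*gpc-B2* between HD and 22 DAA, 6 among the 58 that rose within WT and 18 among the 28 with a lower change in the double mutant. The median log2 ratio of both mutants over WT at 22 DAA was -4.64 for the block and -1.58 for the remaining members.

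Metal transporter and phytosiderophore genes were matched to 71 loci of the count table, and 11 of these would have been members had they not been left out, among them TaZIP3, TaZIP5 and TaNAAT2. By edgeR, 11 of the 71 were lower in the mutants pooled than in WT at 22 DAA (median log2 -0.24, with 0.147% of all loci called lower), and 14 rose and 2 fell within WT between HD and 22 DAA. Other loci, drawn by their descriptions from the 782 described loci of the part of the annotation table used here, numbered 48 for photosynthesis, 38 for proteolysis, 35 for redox, 21 for transport, 8 for nitrogen and 1 for NAC factors. Their median log2 changes in the mutants pooled over WT at 22 DAA ran from -0.21 for proteolysis to 0.14 for photosynthesis, and 1 transport locus was called lower. Within WT 23 of the photosynthesis loci fell and 7 of the proteolysis loci rose between HD and 22 DAA, as did 2 of the nitrogen loci and the NAC locus, while 2 of the transport loci fell and the redox loci divided into 4 that rose and 4 that fell.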

How the data were processed

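RNA of 36 flag leaves was read as 50-base single reads. The authors aligned them with GSNAP to the IWGSC contigs of the A and B genomes, counted uniquely aligned reads per locus with HTSeq in union mode, and deposited raw counts, which drop reads shared by near-identical copies. No strand setting was stated, so overlapping transcripts cannot be separated. From the deposited counts, loci with over 3 reads in at least 2 libraries of a group were tested with edgeR 4.0.16 in R 4.3.3 (TMM scaling, quasi-likelihood, Benjamini-Hochberg adjusted *P* of at most 0.01), fitted on the groups compared, without 12 DAA. DESeq2 1.42.0, other scalings, thresholds, low-count filters, fits over all groups, a rule requiring 4 tests at once, replicate blocks and left-out libraries were alternatives. The code was tested on simulated data. Members and lists were chosen with earlier results of these data known.

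Libraries of 1 replicate number shared a sequencing pool according to the study's methods, so equal numbers pair libraries. Their deviations from group means correlated at a mean r of 0.0137 (over 0.1 in 30 of 144 pairs), against -0.00462 between different numbers (79 of 432 pairs). Nothing says that replicates came from separate growings, so *P* values measure only the spread between these leaves. Named loci were the first 10 by ratio, the 10 highest in WT at 12 DAA, the 5 of lowest *P*, up to 5 sharing a contig, on-off loci and those at the limit of 150. Other loci named were chosen after their values were seen.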

Additional observations from a re-analysis of the deposited data

Results flagged for a closer look

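The difference in change between HD and 22 DAA was called for 28 members in *gpc-A1*/*gpc-B2* relative to WT, all lower in the double mutant, against 0.0438% of all loci. Among the named loci the difference was -9.23 for 7AL contig 4432422, -8.63 for 1AL contig 3918166, -8.48 for 6AL contig 5805822, -8.33 for 2AL contig 6350834, -8.12 for 2BL contig 7971302, -7.67 for 2AL contig 6388831, -4.67 for 3AL contig 4389148 and -3.0 for 2BL contig 7963445, on the log2 scale of the edgeR fit. In each of these 8 the mutants and WT did not overlap at 22 DAA. The 2 largest differences start from very low WT levels at HD. For 1AL contig 3918166 only WT replicate 4 held reads at HD (0.515 CPM). For 7AL contig 4432422 that library had 7.62 CPM and the other WT libraries 0.196 to 0.256 CPM. The sizes of these 2 differences thus depend on the prior count or on replicate 4.

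In the block of 22 members that vary with 2BL contig 7971302, the sum of WT replicate 4 at 12 DAA was 3580 CPM, against 1589 to 1791 CPM in the other WT libraries, and at HD it was 423 CPM, against 42.8 to 97.3 CPM. These are 2 of 27 sums examined for a single library far from its group. Among the named members 43 combinations of 25 members and 9 groups held such a library. For 4 values of a normal distribution, chance gives about 1 in 20 for each combination or sum. CPM near the floor does not follow that distribution, and several named members vary together. The 43 therefore cannot be set against that rate. The library was WT replicate 4 at HD in 10 cases, WT replicate 4 at 12 DAA in 8, *gpc-A1* replicate 4 at HD in 7 and WT replicate 4 at 22 DAA in 6.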

How the results depend on the processing

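Of 206 counts under other processing, 55 moved by over 1.5 times from the reported count. With DESeq2 the called members were 3 for both mutants over WT, 4 for *gpc-A1* over WT, 1 for the double mutant over WT and 18 for the double mutant over *gpc-A1* at HD, 48 for *gpc-A1* and 86 for the double mutant over WT at 22 DAA, 48 and 92 for 22 DAA over HD in *gpc-A1* and WT, and 7 and 56 for the difference in change from WT in *gpc-A1* and *gpc-A1*/*gpc-B2*. Of all loci DESeq2 called 1669 for the double mutant over WT at 22 DAA. For 22 DAA over HD it called 8901 of all loci in *gpc-A1* and 8303 in WT, so these calls were not particular to the members. No share over all loci is given for the difference in change in the double mutant with DESeq2. The shares for the other DESeq2 counts are given in the Results. With the spread estimated over all 9 groups, which include the 12 DAA libraries that chose the members, the called members were 80 for both mutants, 53 for *gpc-A1* and 78 for the double mutant over WT at 22 DAA, 44 and 96 for 22 DAA over HD in *gpc-A1* and WT, and 50 for the difference in change in the double mutant. Of all loci this fit called 480, 130, 676, 13021, 8075 and 67 in the same order. At an adjusted *P* of at most 0.05 the called members were 74 for *gpc-A1*/*gpc-B2* over WT at 22 DAA, 50 and 94 for 22 DAA over HD in *gpc-A1* and WT, and 50 for the difference in change in the double mutant. Of all loci 882, 10812, 10749 and 77 were called at that threshold. Requiring 4 tests at once left 11 members for *gpc-A1*/*gpc-B2* over WT at 22 DAA and 7, 12 and 15 for 22 DAA over HD in *gpc-A1*, *gpc-A1*/*gpc-B2* and WT. It left 71, 805, 3326 and 1636 of all loci. With TMM-scaled CPM, 4 members had WT above all mutants at HD. No share over all loci is given for this count, so it is not read as a result about the members.

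With the replicate block 1 member was called for *gpc-A1* over WT at HD, and no other count of called members moved by over 1.5 times. Leaving out libraries gave 7 to 38 members for both mutants over WT at 22 DAA, 3 to 43 for *gpc-A1*/*gpc-B2* over WT at 22 DAA, 0 to 1 for *gpc-A1* over WT at HD, 0 to 23, 16 to 54 and 22 to 85 for 22 DAA over HD in *gpc-A1*, *gpc-A1*/*gpc-B2* and WT, and 0 to 45 for the difference in change in the double mutant. Members with WT above all mutants at HD were 4 to 9, and with WT below 0 to 2. With fewer libraries such a separation is easier to reach at any locus. No share over all loci is given for these counts, so they are not read as a result about the members. The cause of the changes in the counts of calls was not tested.

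Of 1041 values of single named members, 18 changed sign, none of which had been called. Leaving out libraries, the change in the mutants at 22 DAA ran from -7.59 to 0.45 for 1AS contig 3282156 and from -1.80 to 0.35 for 6BL contig 4390569. The change in WT between HD and 22 DAA ran from -1.36 to 1.22 for the 6BL locus, from -0.34 to 0.74 for 5BL contig 10920285, from -0.0045 to 0.75 for 6AL contig 5775255 and from -0.019 to 0.54 for 4BL contig 7000984. The difference in change of the double mutant ran from -7.65 to 0.64 for the 1AS locus, from -1.15 to 1.41 for the 6BL locus and from -0.23 to 0.64 for the 6AL locus, for which the replicate block gave -0.0065. Of the 150 loci, 113 remained in the list at a minimum WT level of 5 CPM and at least 130 under every other alternative of the rule. Library totals ran from 13754124 to 48981831 reads, and members at a few CPM rest on correspondingly few reads.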
